A study of Homo sapiens with 6 samples.

Results

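The genes described here are 10 chemokines that HuCCT-1 cells transcribe: CX3CL1, CCL22, CCL2, CCL20, CXCL1, CXCL2, CXCL3, CXCL5, CXCL8 and CXCL16. They are 10 of the 60605 genes in the deposited count table, matched by symbol. They were picked with the values of these same libraries in view, so the differences between the groups given below for the members are descriptions and carry no test. HuCCT-1 is an established human cell line from an intrahepatic bile duct cancer (cholangiocarcinoma). The study compared 3 libraries from cells kept for 4 days in 6 nM JNJ-64619178, which blocks PRMT5, an enzyme that methylates arginine in proteins, with 3 libraries from cells kept as long with the solvent DMSO. All libraries came from the unmodified line grown in the same serum-containing medium, and polyadenylated RNA was sequenced. The labels number the replicates 1 to 3 but do not say whether they were separate cultures, so the tests measure the spread between these libraries, which may be technical. The design holds 1 cell line, 1 dose and 1 time.

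Chemokines are small secreted proteins that direct the migration of leukocytes through receptors coupled to G proteins. They are named for the spacing of their first cysteines (CC, CXC or CX3C). CXCL1, CXCL2, CXCL3, CXCL5 and CXCL8 act on CXCR2 and draw neutrophils, CCL2 draws monocytes through CCR2, CCL20 acts on CCR6, and CCL22 acts on CCR4, which regulatory T cells carry. CX3CL1 and CXCL16 are made as membrane-anchored proteins on a mucin stalk, bind CX3CR1 and CXCR6, and are released as soluble chemokines by the sheddases ADAM10 and ADAM17. In many epithelial cells, NF-kB, a family of transcription factors that answers to IL-1 and TNF, switches on several chemokine genes together.

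Depth ranged from 28133746 to 30691914 counts for the DMSO libraries and from 23931991 to 28224911 for the inhibitor libraries, and levels are given below in CPM, counts scaled to the TMM-adjusted library size. Of all genes, 17371 passed the filter on low counts, among them all 10 members, and 3478 of these were higher and 2970 lower under the inhibitor (edgeR's quasi-likelihood test, Benjamini-Hochberg adjusted p under 0.05). With upper-quartile scaling the split turned to 2800 higher and 4099 lower. The markers of bile duct epithelium were present: all 10 biliary markers were detected, with a summed level of 5748 to 6027 CPM under DMSO and 4618.5 to 4908 CPM under the inhibitor, and 2 of them rose while 5 fell. Each set of markers of other cells summed to no more than 6.58 CPM in any library. The 12 leukocyte markers summed to 3.89 to 4.59 CPM under DMSO and 5.98 to 6.58 CPM under the inhibitor, 10 of them stayed below 1 CPM in every library, and MS4A1 and NKG7 were at 0 counts in all, while PTPRC, carried by all leukocytes, had at most 1 count in a library. CD14 carried much of that sum and was called higher (log2 fold change 0.52, edgeR adjusted p = 0.0266), a call lost in 4 of 13 alternatives and a gene named after its values were seen. The 6 endothelial markers summed to 0.642 to 1.09 and 1.10 to 1.54 CPM, the 6 fibroblast markers to 0.580 to 0.905 and 0.770 to 1.67 CPM, and the 6 hepatocyte markers to 2.46 to 2.85 and 3.22 to 4.62 CPM, in each case under DMSO first. CPS1, named after its values were seen, gave much of the hepatocyte sum (2.08 ± 0.287 and 2.81 ± 0.449 CPM) and was not called (edgeR adjusted p = 0.0829). In bulk RNA, fewer cells that express a gene and less RNA per cell cannot be told apart.

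The promoters of the members show what several of these genes share in sequence, and the CXC chemokines of chromosome 4 are printed for that reason, with CCL20 beside them. Each sequence holds the 120 bases before the RefSeq start on GRCh38.p14, 5′ to 3′ on the gene's strand, and the capitals mark the match to the kappa-B letters GGAATTTCC or to the NF-kB consensus, the motif that NF-kB dimers bind.
CXCL1: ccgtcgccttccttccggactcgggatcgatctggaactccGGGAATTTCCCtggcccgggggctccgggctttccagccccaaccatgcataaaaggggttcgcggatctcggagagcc
CXCL2: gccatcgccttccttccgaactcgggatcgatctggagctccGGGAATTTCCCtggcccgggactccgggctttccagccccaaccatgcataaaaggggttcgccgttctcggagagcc
CXCL3: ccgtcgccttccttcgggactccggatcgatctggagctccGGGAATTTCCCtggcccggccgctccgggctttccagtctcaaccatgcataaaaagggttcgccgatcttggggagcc
CXCL5: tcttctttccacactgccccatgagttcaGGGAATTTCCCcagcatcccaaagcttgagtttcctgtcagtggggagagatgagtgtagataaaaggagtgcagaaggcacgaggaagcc
CXCL8: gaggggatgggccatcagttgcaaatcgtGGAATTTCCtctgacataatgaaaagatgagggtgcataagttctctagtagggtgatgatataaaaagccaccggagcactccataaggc
CCL20: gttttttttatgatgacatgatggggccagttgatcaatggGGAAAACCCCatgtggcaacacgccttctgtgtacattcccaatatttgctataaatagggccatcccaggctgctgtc
The stretches lie at chr4:73869273-73869392 (plus strand) for CXCL1, chr4:74099196-74099315 (minus) for CXCL2, chr4:74038690-74038809 (minus) for CXCL3, chr4:73998678-73998797 (minus) for CXCL5, chr4:73740449-73740568 (plus) for CXCL8 and chr2:227813722-227813841 (plus) for CCL20.

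Of the 10 members, 7 were matched to a promoter entry, the 6 printed and CCL22, and no promoter of CX3CL1, CCL2 or CXCL16 was analysed here. Within 250 bases before the start, on either strand, GGAATTTCC stood in 5 of the 7 (CXCL1, CXCL2, CXCL3, CXCL5 and CXCL8) and in 0.413% of all 35116 promoters in the table. The NF-kB consensus stood in 6 of the 7, all but CXCL8, and in 5.21% of all promoters. These motifs overlap, since the consensus covers the shorter letters in CXCL1, CXCL2, CXCL3 and CXCL5, and 7 of 7 members held at least 1 of them against 5.39% of all promoters. In CCL22 the match, GGGGGTCCCC, lay 185 to 176 bases before the start. In CCL20 it lay 79 to 70 bases before it on the opposite strand. The AP-1 letters TGANTCA stood in 1 of 7 (CXCL8) and in 6.57% of all promoters, TATAAA in 2 of 7 (CCL20 and CXCL8) and in 10.7%, and GGGCGG in 2 of 7 (CXCL1 and CXCL3) and in 42.6%. The printed stretches of CXCL1 and CXCL2 were 93.4% identical, those of CXCL1 and CXCL3 90.8% and those of CXCL2 and CXCL3 88.4%, while all other pairs among the 7 lay between 41.8% and 51.9%. Set beside the RNA values given below, CXCL1, CXCL2 and CXCL3 had log2 fold changes of 0.33, 0.09 and 0.04, and CXCL5 and CXCL8, which hold the same 9 letters, had -0.42 and 0.29. The motifs were picked after these sequences had been seen, and a match is a description of the letters, not evidence of binding.

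Of the 10 members, 5 were higher in every inhibitor library than in every DMSO library (CX3CL1, CCL22, CCL2, CXCL1 and CXCL8), 2 were lower in every inhibitor library (CXCL5 and CXCL16) and 3 overlapped (CCL20, CXCL2 and CXCL3). Over all genes tested, 24.7% were higher without overlap and 22.2% lower, 47.0% together. The median log2 fold change of the 10 was 0.19, and that of all genes tested was 0.0014. Since the members were picked from this same comparison, nothing is read from their counts or from their median. The differences spanned a wide range of size, from 4.81-fold for CX3CL1 to within the spread of the libraries for CCL20, CXCL2 and CXCL3.

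**Figure D1:**
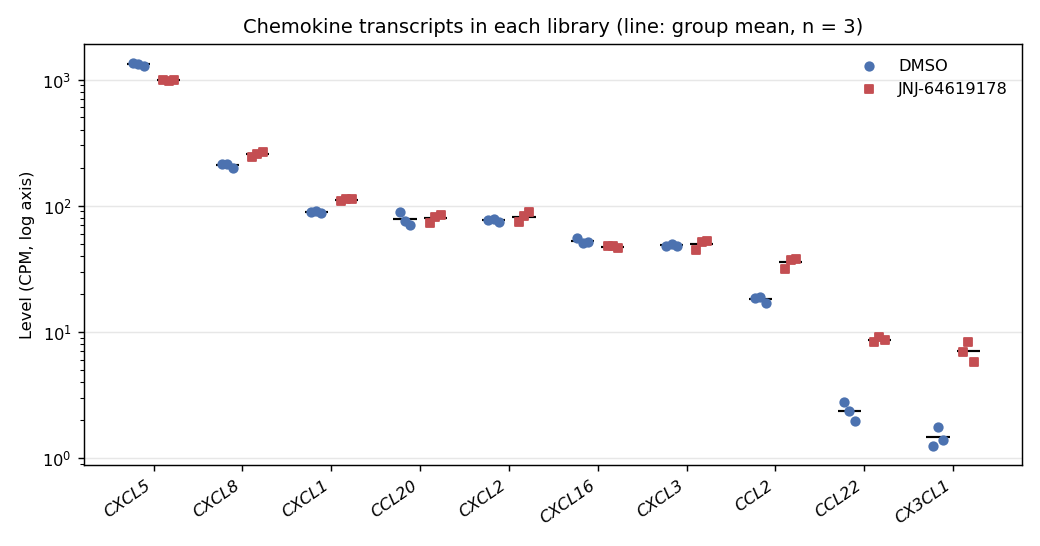
Level of each of the 10 chemokines in every library, as CPM on a log axis, with circles for DMSO, squares for JNJ-64619178 and a short line for the mean of each group (n = 3). CX3CL1 and CCL22 sit lowest and show the widest gap between groups, CXCL5 sits highest, at means of 1325 CPM under DMSO and 987 CPM under the inhibitor, and the points of CCL20, CXCL2 and CXCL3 intermingle.

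CX3CL1, the membrane-anchored chemokine that also holds leukocytes by adhesion, showed the largest difference of the 10. Its level was 1.24, 1.77 and 1.38 CPM under DMSO, from 37, 49 and 43 counts, and 6.87, 8.36 and 5.76 CPM under the inhibitor, from 169, 239 and 136 counts. All inhibitor libraries lay above all DMSO libraries, and the lowest of them was 3.25 times the highest under DMSO. The mean went from 1.47 ± 0.277 to 7.0 ± 1.31 CPM (SD, n = 3 each), a log2 fold change of 2.27 with a standard error (SE) of 0.18. It was the 11th most positive of the log2 fold changes of the 17371 genes tested. It is a change in a gene of low abundance, and over 13 alternative analyses the log2 fold change stayed between 2.11 and 2.41.

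CXCL16, the other chemokine made with a transmembrane stalk, ran the opposite way and by little. It stood at 55.1, 50.6 and 51.2 CPM under DMSO and at 47.9, 48.1 and 45.9 CPM under the inhibitor, so that the groups did not overlap but came close. The mean was 52.3 ± 2.46 against 47.3 ± 1.2 CPM (SD, n = 3 each), with a log2 fold change of -0.14 (SE 0.05) and a range of -0.20 to -0.11 over the alternatives. Its difference was small beside that of CX3CL1.

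Of the CC chemokines, CCL22 and CCL2 were higher under the inhibitor and CCL20 was not. CCL22 stood at 2.78, 2.35 and 1.96 CPM under DMSO, from 83, 65 and 61 counts, and at 8.26, 9.06 and 8.65 CPM under the inhibitor, from 203, 259 and 204 counts. The groups lay far apart and the inhibitor libraries lay close together. The mean went from 2.36 ± 0.411 to 8.66 ± 0.405 CPM (SD, n = 3 each), a 3.66-fold difference with a log2 fold change of 1.87 (SE 0.14), the 39th most positive of all genes.

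CCL2, the main attractant of monocytes, began at a higher level. It was 18.5, 19.0 and 17 CPM under DMSO and 31.6, 37.2 and 38.1 CPM under the inhibitor. Every inhibitor library lay above every DMSO library, and replicate 1 was the lowest of the inhibitor libraries. The mean went from 18.2 ± 1.02 to 35.6 ± 3.54 CPM (SD, n = 3 each), 1.96-fold, with a log2 fold change of 0.97 (SE 0.07).

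CCL20, which attracts CCR6-bearing lymphocytes and dendritic cells, had levels of 89.1, 75.3 and 70.0 CPM under DMSO and 73.1, 80.9 and 83.6 CPM under the inhibitor. The inhibitor libraries fell inside the range of the DMSO libraries, which was the wider of the pair. The means of 78.2 ± 9.83 and 79.2 ± 5.47 CPM (SD, n = 3 each) differed by less than the spread between replicates, and the log2 fold change of 0.02 (SE 0.07) had no settled sign, running from -0.07 to 0.12 over the alternatives.

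The CXC chemokines that draw neutrophils split in 3 ways. CXCL8, also known as interleukin 8, was at 213, 213 and 199 CPM under DMSO and at 244, 255 and 265 CPM under the inhibitor, with no overlap. Its mean was 208 ± 8.03 against 255 ± 10.2 CPM (SD, n = 3 each), a log2 fold change of 0.29 (SE 0.05), or 1.22-fold. CXCL1, first known as a melanoma growth factor, was at 88.4, 90.2 and 87.7 CPM under DMSO and at 109, 113 and 113 CPM under the inhibitor. Its libraries lay close together within each group, with means of 88.8 ± 1.30 and 112 ± 2.06 CPM (SD, n = 3 each) and a log2 fold change of 0.33 (SE 0.05). Both differences were small and lay outside the range of the replicates.

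CXCL2 and CXCL3, the close relatives of CXCL1, overlapped between the groups. CXCL2 was at 77.3, 78.2 and 74.6 CPM under DMSO and at 74.2, 82.1 and 89.1 CPM under the inhibitor, a log2 fold change of 0.09 (SE 0.06). CXCL3 was at 48.2, 49.8 and 47.5 CPM under DMSO and at 44.4, 52.0 and 52.8 CPM under the inhibitor, a log2 fold change of 0.04 (SE 0.06) whose sign turned under upper-quartile scaling, to -0.02. In both genes inhibitor replicate 1 was below all DMSO libraries and the other inhibitor libraries were above them. Without that library both would be counted as higher without overlap, which brings that count from 5 to 7 of the 10 members. Of the stretches of 50 bases in their GENCODE transcripts, 12.5% in CXCL2, 6.01% in CXCL3 and 4.81% in CXCL1 also occur in another gene, chiefly in one another, so these counts are uncertain where reads could be shared.

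CXCL5, also a ligand of CXCR2, was by far the most abundant of the 10 and lower under the inhibitor. It was at 1348, 1339 and 1289 CPM under DMSO and at 992, 976 and 994 CPM under the inhibitor. The groups were well apart and each was tight, with means of 1325 ± 32.2 and 987 ± 9.75 CPM (SD, n = 3 each). The log2 fold change was -0.42 (SE 0.04), so that the DMSO level was 1.34 times the inhibitor level. Because CXCL5 gave 69.8% ± 0.323 of the 10 genes' summed CPM under DMSO and 59.4% ± 1.21 under the inhibitor, it set the direction of the sum, which went from 1900.0 ± 54.2 to 1663 ± 31.6 CPM. Without CXCL5 the sum of the other 9 went the other way, from 575 ± 22.2 to 676 ± 31.9 CPM (SD, n = 3 each).

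**Figure D2:**
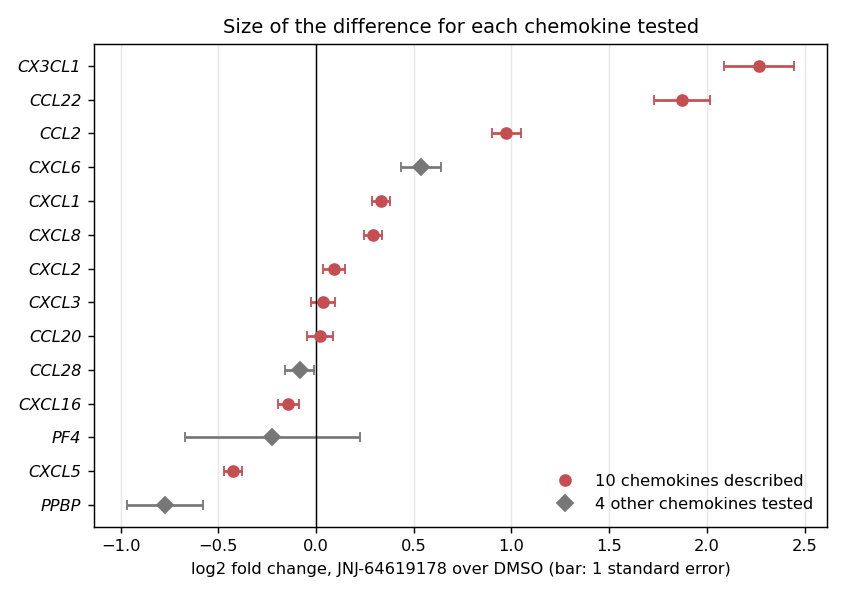
Log2 fold change, JNJ-64619178 over DMSO, of the 10 chemokines (red circles) and of the 4 other chemokines tested (grey diamonds), with bars of 1 standard error. CX3CL1 at 2.27 and CCL22 at 1.87 lie far to the positive side, PPBP at -0.77 and CXCL5 at -0.42 lie lowest, and the bars of CCL20, CXCL3 and PF4 cross 0.

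Compared per kb of exon, the members covered a wide range of abundance. With DMSO the order of mean CPM per kb was CXCL5 at 522, CXCL8 at 91.6, CXCL1 at 68.5, CXCL2 at 51.1, CCL20 at 49.0, CXCL3 at 21.9, CXCL16 at 18.7, CCL2 at 9.15, CCL22 at 0.807 and CX3CL1 at 0.245. Among neighbours in this order, CXCL2 and CCL20 overlapped between libraries (49.7 to 52.2 and 43.9 to 55.9 CPM per kb). With the inhibitor CCL2 reached 17.9 CPM per kb, beside CXCL16 at 16.9, and their libraries overlapped (15.9 to 19.2 and 16.4 to 17.2), while CCL22 at 2.95 and CX3CL1 at 1.17 stayed the lowest. Scaled to the longest transcript in place of all exons, CCL20 moved above CXCL1 and CXCL2 under DMSO. The genes with the largest relative differences were thus the scarcest ones.

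Several members shared the same lowest library within a group. DMSO replicate 3 was the lowest DMSO library for 8 of the 10 members and the highest for 0, whereas it was lowest for 35.65% of all genes tested. Inhibitor replicate 1 was the lowest inhibitor library for 7 of the 10 and the highest for 0, against 34.51% of all genes. The part of this order in the group differences was not tested. Without DMSO replicate 3 the counts of members without overlap stayed at 5 higher and 2 lower.

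CCL22 and CX3CL1 are neighbours on chromosome 16. In GENCODE release 29 on GRCh38, CCL22 lies at chr16:57358772-57366190 and CX3CL1 at chr16:57372458-57385048, both on the plus strand and 6.27 kb apart. CCL17, another chemokine 19.7 kb beyond CX3CL1 and like CCL22 a ligand of CCR4, had 1, 1 and 1 counts under DMSO and 1, 3 and 2 under the inhibitor and was too low to test. Within 250 kb on either side lay 13 other protein-coding genes, of which 11 were tested, 4 rose and 0 fell (edgeR's test, with 0 lower at an unadjusted p under 0.05 and 0 by DESeq2 and by limma-voom), and the median log2 fold change of the 11 was 0.11. Their share of called genes was close to the 37.1% called over all genes tested. The 4 were CPNE2 (log2 fold change 0.49, edgeR adjusted p = 7.0e-05), PSME3IP1 (0.30, 5.0e-05), RSPRY1 (0.26, 0.0018) and COQ9 (0.20, 0.038), and the last of these lost its call in 9 of 13 alternatives. The nearest tested genes on each side, PLLP at 0.02 and CIAPIN1 at -0.11, were not called. None of these log2 fold changes came near the 1.87 and 2.27 of the chemokine pair.

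The CXC members of chromosome 4 lie within 359 kb, from CXCL8 at chr4:73740506-73743716 to CXCL2 at chr4:74097035-74099293. Along the chromosome the plus-strand genes CXCL8, CXCL6, PF4V1 and CXCL1 come first, and the minus-strand genes PF4, PPBP, CXCL5, CXCL3 and CXCL2 follow. On the plus strand CXCL8, CXCL6 and CXCL1 were higher under the inhibitor, while PF4V1, a copy of PF4, was too low to test and its libraries overlapped (means of 0.150 and 0.184 CPM). On the minus strand PPBP and CXCL5 were lower, CXCL3 and CXCL2 overlapped, and PF4 was not called (log2 fold change -0.22, edgeR adjusted p = 0.734). Within 500 kb of the span, 13 other protein-coding genes lay, 8 of them tested, of which CXCL6 rose and PPBP, EREG and AREG fell. Over all genes tested, 20.0% were higher and 17.1% lower, 37.1% together, and nothing is read about the locus from so few genes. EREG, an epidermal growth factor ligand, went from 229 ± 23.9 to 177 ± 12.8 CPM (log2 fold change -0.37, edgeR adjusted p = 3.0e-05), and AREG, another, from 333 ± 7.90 to 287 ± 19.0 CPM (-0.21, 0.00106).

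**Figure D3:**
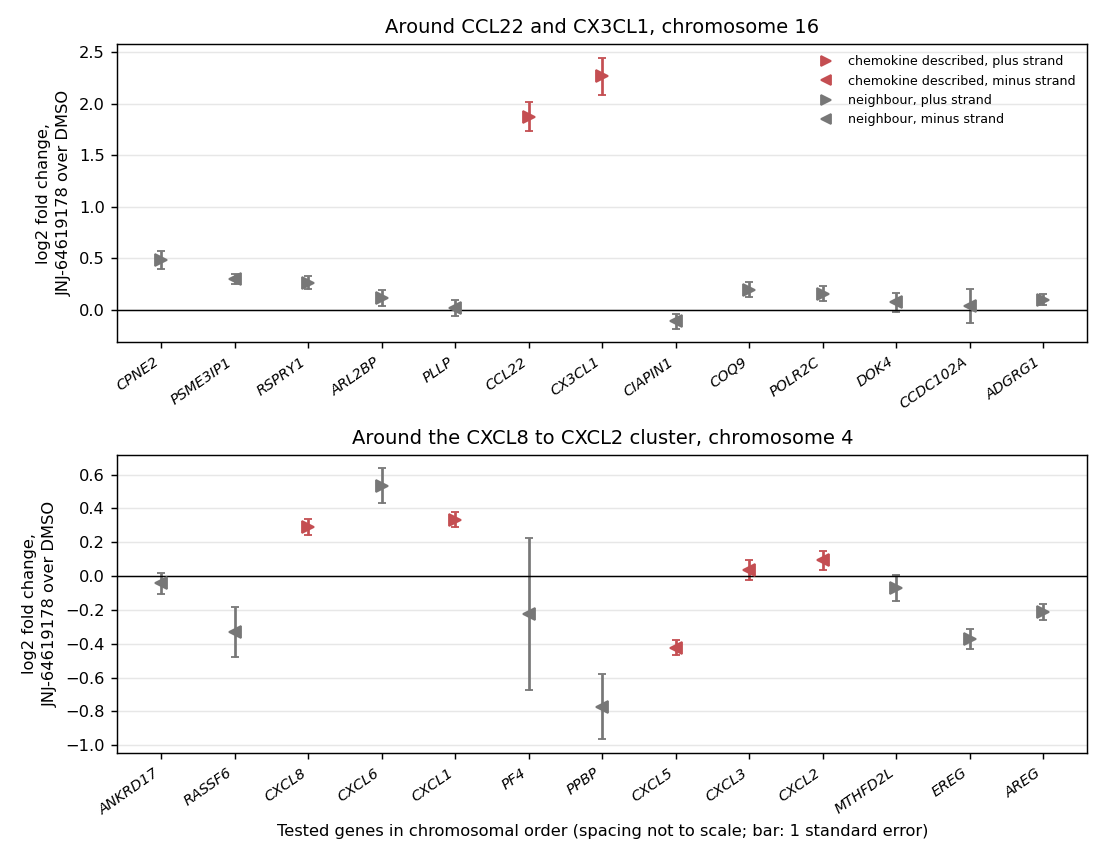
Log2 fold change, JNJ-64619178 over DMSO, of the tested genes around both chemokine clusters in chromosomal order, with the spacing not to scale, bars of 1 standard error, arrowheads for the strand, and the chemokines described in red. CCL22 and CX3CL1 stand at 1.87 and 2.27 between neighbours PLLP at 0.02 and CIAPIN1 at -0.11 on chromosome 16, and on chromosome 4 CXCL8, CXCL6 and CXCL1 lie above 0 while PPBP and CXCL5 lie below it.

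The remaining chemokine genes were mostly silent. Of 36 others in the table, 13 had 0 counts in all libraries, 19 had counts but missed the filter, at no more than 0.84 CPM, and 4 were tested. CXCL6, a further neutrophil attractant, was at 7.17, 9.31 and 8.35 CPM under DMSO and at 11.8, 11.9 and 12.2 CPM under the inhibitor, and rose (log2 fold change 0.53, SE 0.10, edgeR adjusted p = 2.0e-04). PPBP, the precursor of CXCL7, was at 3.62, 3.33 and 2.76 CPM and at 1.75, 2.24 and 1.65 CPM, and fell (log2 fold change -0.77, SE 0.19, edgeR adjusted p = 0.00288). CCL28, a mucosal chemokine, and PF4, a platelet chemokine, did not pass (log2 fold changes -0.08 and -0.22, edgeR adjusted p = 0.412 and 0.734). The median of the 4 was -0.15. The 1 rise and 1 fall stand against 20.0% of all genes higher and 17.1% lower, 37.1% together. CCL24, an attractant of eosinophils that missed the filter, was called higher when no filter was used (log2 fold change 1.62, SE 0.50, edgeR adjusted p = 0.00924), a gene named after its values were seen.

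The cells carried next to no RNA for the receptors of these ligands. CXCR1, CXCR2 and CCR2 had 0 counts in all libraries, which allows at most 0.127 CPM in any library (3 counts, counting error only). CX3CR1, CCR4, CCR6 and CXCR6 had no more than 3 counts in any library. Of 25 receptor genes listed, 8 were tested, 1 rose and 1 fell, with a median log2 fold change of -0.02. The 1 rise and 1 fall compare with 20.0% of all genes tested higher and 17.1% lower, 37.1% together. CXCR4, the receptor of CXCL12, went from 13.7 ± 1.10 to 16.7 ± 0.866 CPM (log2 fold change 0.28, edgeR adjusted p = 0.00998), and the call was lost without DMSO replicate 3 (0.0851). CCRL2, a receptor that binds chemerin without signalling, went from 9.12 ± 0.626 to 6.43 ± 0.667 CPM (log2 fold change -0.50, edgeR adjusted p = 0.00115). The scavenging receptors ACKR3 and ACKR2 had log2 fold changes of 0.71 and 0.48 and did not pass (edgeR adjusted p = 0.135 and 0.288), although ACKR3 passed without DMSO replicate 3 (0.0459).

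Among proteases that cut or release chemokines and the iRhom partners of ADAM17, MMP9 and MMP10 rose the most. Of 15 listed, 13 were tested, 6 rose and 1 fell, with a median log2 fold change of 0.13 against 0.0014 over all genes. The share called was 53.8%, against 37.1% of all genes tested. MMP10, a stromelysin, went from 15.8, 13 and 10.8 CPM under DMSO to 45.8, 53.0 and 49.5 CPM under the inhibitor (log2 fold change 1.91, edgeR adjusted p = 5.42e-14). MMP9, a gelatinase, went from 0.317 ± 0.227 to 2.13 ± 0.293 CPM at low counts (2.73, 1.24e-06). RHBDF2, the iRhom partner that carries ADAM17 to the cell surface, went from 83.0 ± 5.13 to 114 ± 3.77 CPM (0.45, 1.42e-07), and CTSS, cathepsin S, from 13.4 ± 0.405 to 18.9 ± 0.892 CPM (0.49, 1.66e-05). The sheddases of CX3CL1 and CXCL16 were looked up after their values had been seen. ADAM17 fell from 100.1 ± 2.88 to 86.2 ± 2.56 CPM (log2 fold change -0.22, edgeR adjusted p = 7.23e-04). ADAM10 passed at 0.13 (edgeR adjusted p = 0.0335) but lost its call in 8 of 13 alternatives.

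NF-kB and AP-1 genes and their regulators formed the list of transcription genes. All 32 were tested, 14 rose and 2 fell, with a median log2 fold change of 0.13, against 0.0014 over all genes. These counts stand beside 20.0% of all genes tested higher and 17.1% lower, 37.1% together. The list was chosen with earlier results of these data known. TNFAIP3, a feedback inhibitor of NF-kB, went from 319, 317 and 303 CPM under DMSO to 517, 517 and 549 CPM under the inhibitor (log2 fold change 0.76, edgeR adjusted p = 3.08e-12). IKBKB, a kinase that releases NF-kB from its inhibitors, went from 139 ± 7.27 to 235 ± 6.55 CPM (0.75, 7.64e-12), NFKB2, the subunit of the alternative pathway, from 166 ± 3.27 to 254 ± 4.76 CPM (0.61, 5.89e-11), and STAT6, the factor downstream of IL-4, from 215 ± 6.10 to 327 ± 8.32 CPM (0.61, 8.35e-11). RELA, the main activating subunit, stood at 139 ± 0.329 and 136 ± 4.66 CPM and did not pass (log2 fold change -0.03, edgeR adjusted p = 0.586). The 2 genes that fell were JUND (-0.20) and FOSL1 (-0.12), both AP-1 members, and FOSL1 lost its call in 5 of 13 alternatives. RELA, JUND and FOSL1 are named after their values were seen.

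Cytokines and receptors that act upstream of chemokine genes had a median log2 fold change of 0.30, against 0.0014 over all genes. Of 28 listed, 27 were tested, 14 rose and 1 fell. The 55.6% called stand beside 37.1% of all genes tested, in a list chosen with earlier results of these data known. IL1B, which induces chemokines in epithelial cells, went from 114, 102 and 103 CPM under DMSO to 148, 159 and 162 CPM under the inhibitor (log2 fold change 0.56, edgeR adjusted p = 4.17e-09). IFNGR2, a chain of the interferon gamma receptor, went from 38.0 ± 1.87 to 56.8 ± 1.25 CPM (0.58, 7.27e-09), TNFRSF1B, the second TNF receptor, from 10.3 ± 0.384 to 18.7 ± 2.54 CPM (0.87, 6.88e-08), and IL1RN, the antagonist of IL-1, from 67.9 ± 4.28 to 94.9 ± 4.43 CPM (0.48, 1.01e-07). The gene that fell was LTBR, the lymphotoxin beta receptor (log2 fold change -0.24), named after its value was seen.

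Among genes that control the decay of chemokine mRNAs through AU-rich elements and stem loops, all 12 were tested, 6 rose and 0 fell (edgeR's test, with 2 lower at an unadjusted p under 0.05 and 0 by DESeq2 and by limma-voom), with a median log2 fold change of 0.13. Upper-quartile scaling gave 3 higher and 2 lower. In the main test 20.0% of all genes were higher and 17.1% lower, 37.1% together, with a median log2 fold change of 0.0014. Nothing is read about decay factors from the counts of 12 genes. The RNA-binding protein TIAL1 went from 269 ± 10.6 to 387 ± 4.96 CPM (log2 fold change 0.53, edgeR adjusted p = 1.19e-09), ZC3H12C, of the Regnase family, from 197 ± 6.20 to 262 ± 10.5 CPM (0.41, 9.95e-08), and TIA1 from 144 ± 5.71 to 182 ± 7.21 CPM (0.33, 4.03e-06). HNRNPD passed (0.15, 0.00989) but lost its call with upper-quartile scaling and without DMSO replicate 1. ZFP36, the best-known decay factor of such mRNAs and named after its values were seen, stood at 21.4 ± 0.626 and 20.7 ± 1.46 CPM and did not pass (log2 fold change -0.05, edgeR adjusted p = 0.652).

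Heparan sulfate proteoglycans, which hold chemokines at the cell surface, and the enzymes that build or trim their chains made up the last list. Of 16 listed, 14 were tested, 3 rose and 3 fell, with a median log2 fold change of 0.03, and the 42.9% called were near the 37.1% of all genes tested. SDC1, a syndecan of epithelial cells, fell from 172 ± 3.18 to 136 ± 5.14 CPM (log2 fold change -0.34, edgeR adjusted p = 1.93e-06), and the chain polymerases EXT1 and EXT2 fell by 0.24 and 0.20 on the log2 scale (edgeR adjusted p = 2.28e-04 and 0.00104). SDC4, a more abundant syndecan here and named after its values were seen, rose from 532 ± 24.6 to 614 ± 35.4 CPM (0.21, 0.00171). GPC4, a glypican, rose from 335 ± 6.22 to 403 ± 10.7 CPM (0.27, 2.71e-05).

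**Figure D4:**
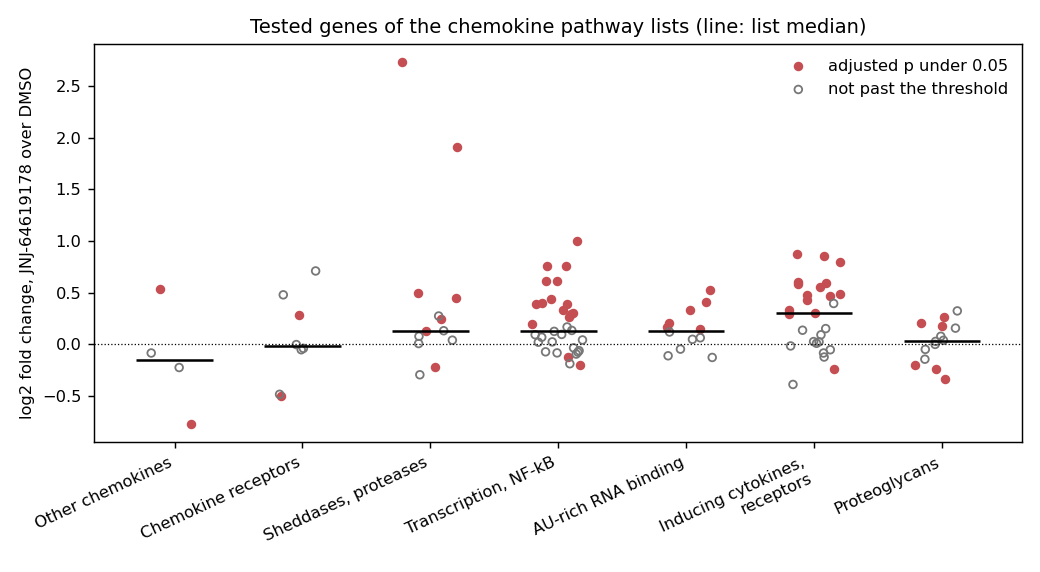
Log2 fold change, JNJ-64619178 over DMSO, of every tested gene in each of 7 pathway lists, filled red past the adjusted p threshold of 0.05 and open grey otherwise, with a line at the list median and points spread sideways for display. The median is 0.30 for the upstream cytokines and receptors, 0.13 for the transcription genes and -0.15 for the other chemokines, against 0.0014 over all genes tested.

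The genes most like CX3CL1 and CCL22 across the libraries were found by Pearson's r of log2 CPM over the 6 libraries. Before the log, 0.5 CPM was added. The libraries fall in 2 groups, so that r mainly reflects the group difference. For CX3CL1 they were ACOT9 (r = 0.999), RANBP1 (0.999) and LRRC45 (0.998), with log2 fold changes of 0.34, 0.45 and 0.44, much smaller than its own. For CCL22 they were MMP10 (over 0.999), ADCY6 (0.999) and WNK4 (0.999), with log2 fold changes of 1.91, 0.40 and 1.57. Such values were common: over all genes tested, without these limits, 2202 genes had r above 0.9 with CX3CL1 and 2285 with CCL22.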

How the data were processed

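The authors deposited raw read counts per gene for the 6 libraries, with no normalization, per the file headers. The submitters' processing notes list edgeR, limma, STAR 2.7.9a, featureCounts 1.6.0 and FastQC 0.11.8 with no role, and a mouse build, although the gene identifiers are human, so the build is uncertain. Not given in the sources used here are the annotation, the strand setting and the treatment of reads with several matches. Rows repeating an identifier (44, all at 0) were dropped, which left 60605 genes. Symbols came from a reference table and positions and lengths from GENCODE release 29 on GRCh38.

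Counts were filtered with filterByExpr (minimum count 10, minimum total 15), scaled by TMM and compared between groups with edgeR 4.0.16 (R 4.3.3), glmQLFit and glmQLFTest, group alone, at a Benjamini-Hochberg adjusted p of 0.05 over all 17371 genes. The SE is the log2 fold change divided by the root of F. The fit was tested on simulated data. No replicate pair matched within sampling noise (chi-square divided by its degrees of freedom, 2.67 to 8.96, over genes with a summed count of at least 10). The members and gene lists were chosen with earlier results of these data known. Named are all members, the 4 smallest p in each list, all other tested chemokines, called neighbours and, among the genes ranked, the 3 most like CX3CL1 and CCL22. Also named, outside this rule, are receptors of the members, the markers PTPRC, MS4A1 and NKG7, and the neighbours PLLP, CIAPIN1, CCL17 and PF4V1. Other genes named are marked as chosen after their values were seen. Alternatives were DESeq2 1.42.0, limma-voom (3.58.1), other scalings and filters, a replicate block and leaving out each library. Promoter sequences are from RefSeq, GRCh38.p14.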

Additional observations from a re-analysis of the deposited data

How the results depend on the processing

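Under 2 other scalings and without each library in turn, the counts of members without overlap stayed at 2 lower, and at 5 higher except for 7 without inhibitor replicate 1. CCL20 and CXCL3 had no settled sign: with upper-quartile scaling their log2 fold changes were -0.039 and -0.021, and leaving out 1 library gave -0.066 to 0.12 for CCL20 and -0.0061 to 0.11 for CXCL3. Genes called numbered 6448, between 5304 and 6097 without 1 library. Other chemokines called higher were 2 with no filter and 1 to 2 without 1 library, and receptors called lower 1 to 2 without 1 library. Transcription genes called lower were 4 with upper-quartile scaling, and 1 to 4 without 1 library. RNA decay genes called higher were 3 and lower 2 with upper-quartile scaling, and without 1 library 0 to 1 were lower. Upstream genes called lower were 2 with upper-quartile scaling and 1 to 2 without 1 library. The cause of these shifts was not tested. The shared replicate numbers did not pair the libraries. Same-numbered libraries had correlations of deviations of -0.12, -0.03 and -0.01, and no library correlated best with its own number. The replicate block gave 6132 calls and 1 transcription gene lower. The pseudocount alternative was not run for the tests, since the values are counts, and the 0.5 CPM added to find alike genes was not varied. Depth limits CX3CL1 and CCL22, which rest on 37 to 83 counts per DMSO library.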
